A study of Mus musculus with 12 samples.

Results

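The genes described here encode the enzymes and transporters that take up glucose, split it to pyruvate, and pass it to lactate, acetyl-CoA or the pentose phosphates. The 35 genes were listed by name and role, and every probe that the array's annotation gives to 1 of them was taken. This gave 52 of the 45281 probes and covered 31 of the 35 genes, out of 19057 genes named on the array. Hk2, Gpi1, Eno1 and G6pdx had no probe under those names. Pfkfb3, Bpgm, Pgm2, Pgd and Fbp1 had 6 probes in all, none of them kept: each was detected on at most 3 of the 12 arrays, and none exceeded 4.57 on the log2 scale. The other 26 genes were measured, with 40 kept probes. Keeping a probe required detection, a detection p-value under 0.05, on every one of the 3 arrays in some group.

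The cells came from a study of chromatin-remodelling factors in reprogramming. The design held 4 groups of 3 arrays. The ESC group was mouse embryonic stem cells of the OG2 line, a mix of both sexes. The MEF group was male embryonic fibroblasts of that line. The iPS4F group was male induced pluripotent stem cells made with the factors Oct4, Sox2, Klf4 and c-myc. The iPS6F group, also male, had Brg1 and Baf155 added to those 4, which are parts of BAF, a complex that remodels chromatin. OG2 cells are known for a green fluorescent reporter driven by Oct4. The labels number the arrays of a group but name no separate culture, and give neither the line nor the number of clones of the iPS cells. P-values therefore measure the spread between these arrays, which may be technical.

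Glycolysis breaks glucose down to pyruvate, and most of its steps can be run by several isozymes that differ between tissues. Pluripotent stem cells are known for a high glycolytic rate and for sending much of their pyruvate to lactate, while pyruvate dehydrogenase, which feeds pyruvate into the mitochondrial cycle, is held back by its kinases. The pentose phosphate pathway branches off early and supplies ribose and reducing power.

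Mean raw intensity ran from 138.9 to 236.7 and detected probes from 14107 to 17741 per array, both lowest on ESC array 2 and highest on iPS4F array 1. The labelled cell types showed their markers. All 8 fibroblast markers were detected on every MEF array, with a summed linear level of 25980 to 29340 against 155.6 to 208.8 on the other arrays, where Col1a1, Col3a1 and Postn were not detected. All 8 pluripotency markers were detected on every ESC and iPS array, with sums of 19090 to 23700 against 151 to 162.1 in MEF. MEF arrays also carried macrophage markers, of which 4 of 5 with a probe were detected on every MEF array. Their sum was 864.1 to 1233 in MEF and 89.67 to 106.3 elsewhere, and Ptprc was detected on 1 MEF array, by 1 of its 4 probes.

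The start sites of these genes often carry the letters known as the core of the hypoxia response element, ACGTG or GCGTG, to which HIF binds. In the RefSeq windows from 250 bases before to 50 after the start (GRCm38.p6), 34 of the 35 genes could be matched, with 48 windows. The gene without a window was Slc2a3. Either strand counted. At least 1 window held ACGTG or GCGTG in 27 of the 34 genes, against 46.7% of 27025 genes, and 43.8% of all 32851 windows held it. ACGTG alone was in 17 of the 34, against 21.8%, and GCGTG in 21, against 35.2%. The MYC site CACGTG, which contains ACGTG on both strands, was in 3 genes, against 8.09% of all genes. The GC box GGGCGG was in 26, against 38.2%, and the TATA box letters TATAAA in 3, against 15.7%. The windows are rich in G and C, which bears on the counts of such letters, and a match is not a bound site.

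The windows of 4 genes are shown because these stand for the main patterns below: Slc2a1, Pgk1 and Ldha, higher in all pluripotent groups than in MEF, and Dlat, the member lower in all of them. Capitals mark ACGTG or GCGTG on either strand, read 5′ to 3′ on the gene's strand. The window of Slc2a1 is chr4:119108495-119108794 on the + strand, that of Pgk1 chrX:106186850-106187149 on the + strand, the upstream 1 of the 2 of Ldha chr7:46845554-46845853 on the + strand, and that of Dlat chr9:50659731-50660030 on the - strand.
Slc2a1: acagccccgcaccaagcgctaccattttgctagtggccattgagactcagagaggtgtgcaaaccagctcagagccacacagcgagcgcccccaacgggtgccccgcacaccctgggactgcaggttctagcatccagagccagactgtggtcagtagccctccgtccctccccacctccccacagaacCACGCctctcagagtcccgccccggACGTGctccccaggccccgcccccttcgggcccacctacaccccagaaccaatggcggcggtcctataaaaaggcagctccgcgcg
Pgk1: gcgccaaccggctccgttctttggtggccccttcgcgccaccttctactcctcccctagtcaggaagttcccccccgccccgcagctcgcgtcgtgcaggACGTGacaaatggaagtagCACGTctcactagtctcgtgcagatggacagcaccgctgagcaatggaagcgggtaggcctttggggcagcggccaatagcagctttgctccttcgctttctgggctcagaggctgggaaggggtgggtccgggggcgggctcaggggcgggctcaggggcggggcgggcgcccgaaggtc
Ldha: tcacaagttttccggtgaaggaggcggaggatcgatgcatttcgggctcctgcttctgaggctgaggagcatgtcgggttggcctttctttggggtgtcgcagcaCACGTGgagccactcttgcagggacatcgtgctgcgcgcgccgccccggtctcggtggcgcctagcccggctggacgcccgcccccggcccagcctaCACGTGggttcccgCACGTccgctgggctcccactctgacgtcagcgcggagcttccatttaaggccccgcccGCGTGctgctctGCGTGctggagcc
Dlat: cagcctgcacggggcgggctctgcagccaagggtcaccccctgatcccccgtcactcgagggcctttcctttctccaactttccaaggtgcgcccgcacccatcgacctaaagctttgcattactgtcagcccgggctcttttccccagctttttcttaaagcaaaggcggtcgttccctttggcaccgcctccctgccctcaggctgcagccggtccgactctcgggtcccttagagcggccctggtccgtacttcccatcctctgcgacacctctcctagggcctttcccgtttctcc
Slc2a1 has 2 matches, Pgk1 has 2, and Ldha has 7, of which 4 come from 2 CACGTG sites read on both strands. The Dlat window has 0 matches. This says only that these letters are not in that window. The windows shown do not stand for the other members in their matches. Of the measured genes with a window, 21 of 25 had a match, against 46.7% of all genes. Tpi1 and Pgam2, higher in all pluripotent groups, had 0 matches, and Pdha1, lower in ESC, had 4. Whether matches go with direction was not tested.

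Against MEF, most of the measured pathway was higher in all 3 pluripotent groups. In ESC, 21 of the 26 genes were higher, 2 were lower (Pdha1 and Dlat) and 3 were not called (Hk1, Eno2 and Ldhb), where called means an adjusted p under 0.05 in limma over all kept probes. Over all 10096 measured genes, 75.7% were called, 39.8% higher and 35.9% lower. In iPS4F, 24 were higher and 1 lower, against 39.5% and 38.9% of all genes, 78.4% in all. In iPS6F, 24 were higher and 1 lower, against 38.9% and 39.2% of all genes, 78.1% in all. In both iPS groups the lower gene was Dlat and the gene not called was Pdha1. The median log2 difference of the 26 genes was 1.57 in ESC, 1.73 in iPS4F and 1.69 in iPS6F, beside 0.08, 0.04 and 0.03 for all genes. At least 2-fold higher were 18, 21 and 19 of the 26, where 19.5%, 18.9% and 19.1% of all genes were. These 3 comparisons share the MEF arrays and are not independent.

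A gene detected in only some groups could enter the 26 because it was high there. Of the 26, 22 had a main probe, the kept probe of highest mean, that was detected on all 12 arrays. Hk1, Aldoc, Ldhb and Dlat were not. Of 22 genes detected with p under 0.01 on every array, 20 were higher and 1 lower in ESC, and 21 were higher and 0 lower in each iPS group. Of all 5982 genes under this filter, 4728 were called in ESC, 4752 in iPS4F and 4788 in iPS6F. Of those called, 59.4%, 54.9% and 54.2% were higher. The macrophage and fibroblast markers given above moved with every difference from MEF, and their part in these results was not tested. In RNA from whole cultures, fewer cells of a type and less RNA per cell cannot be told apart.

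**Figure D1:**
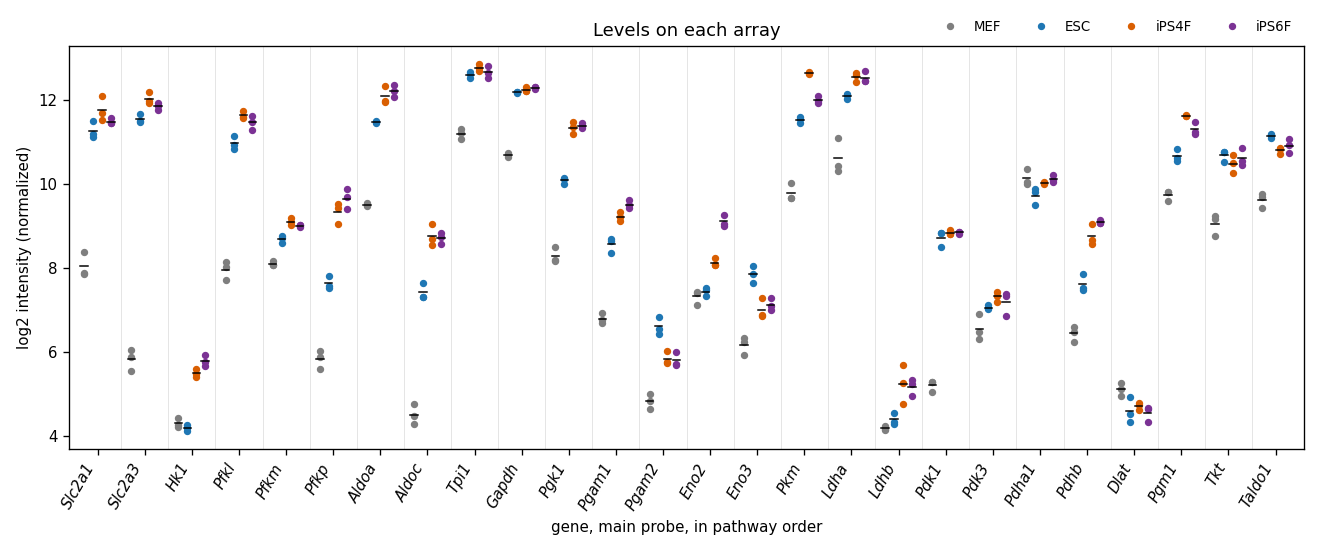
Normalized log2 intensity (vertical axis) of the main probe of each of the 26 measured genes (horizontal axis, in pathway order) on each of the 12 arrays, with a short line at the group mean. For Slc2a3 the MEF arrays sit between 5.54 and 6.05 and all others between 11.48 and 12.18; heights of different genes are not comparable, since each probe binds differently.

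**Figure D2:**
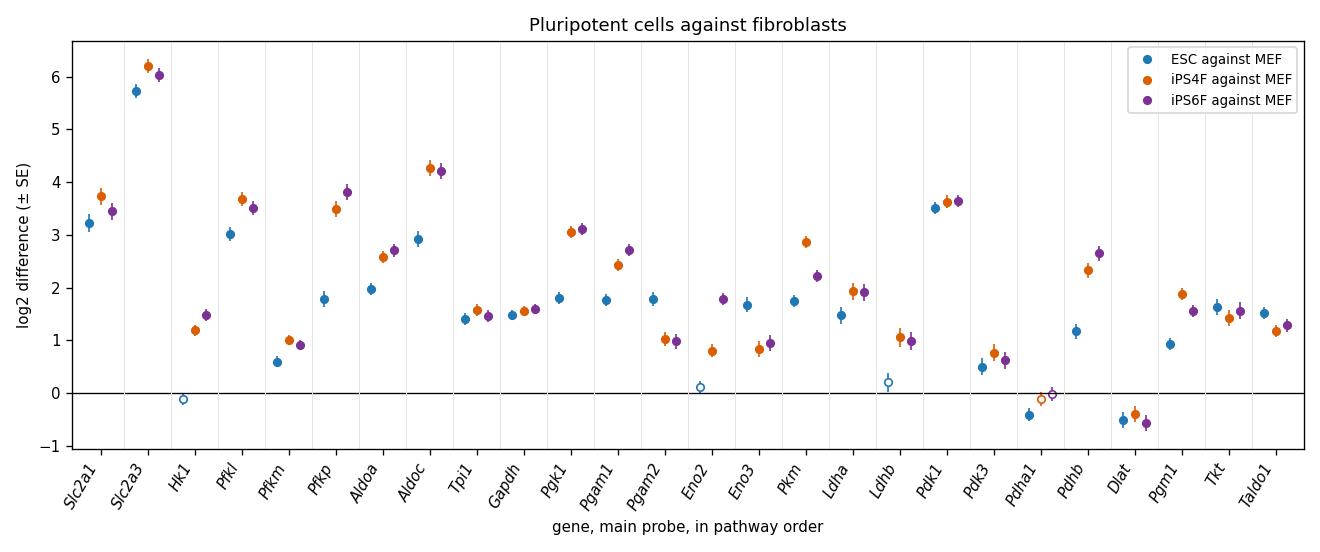
Log2 difference from MEF ± SE (vertical axis) of each gene's main probe in ESC, iPS4F and iPS6F; filled points passed an adjusted p of 0.05, open points did not. Slc2a3 stands highest in all 3 comparisons, at 5.72 to 6.20, and Dlat is below 0 in all 3.

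Both glucose transporters were far higher in the pluripotent cells. Slc2a3 encodes GLUT3, a high-affinity transporter. Its log2 level was 6.05, 5.89 and 5.54 on the MEF arrays, 11.48, 11.66 and 11.50 in ESC, 12.18, 11.97 and 11.92 in iPS4F, and 11.93, 11.85 and 11.75 in iPS6F. No pluripotent array came near a MEF array. The differences of 5.72 ± 0.13 (SE), 6.20 ± 0.13 and 6.02 ± 0.13 are 52.8-fold, 73.4-fold and 64.95-fold, and were the largest fitted differences of the 26 genes in each comparison. The adjusted p for ESC was 8.878e-16.

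Slc2a1 encodes GLUT1, the transporter of most growing cells. Its log2 level was 8.39, 7.88 and 7.85 in MEF, 11.12, 11.19 and 11.49 in ESC, 12.10, 11.69 and 11.52 in iPS4F, and 11.57, 11.44 and 11.44 in iPS6F. The ESC difference from MEF was 3.22 ± 0.16, or 9.35-fold, with 13.3-fold in iPS4F and 10.9-fold in iPS6F. Against ESC, both transporters passed the test in iPS4F, Slc2a1 at 0.50 ± 0.16 (adjusted p 0.02126) and Slc2a3 at 0.48 ± 0.13 (adjusted p 0.008236). In iPS6F the differences were 0.22 and 0.30, and the iPS6F difference from iPS4F did not pass for either gene (adjusted p 0.5431 and 0.6693). Both iPS4F calls ended with the authors' values (adjusted p 0.07378 and 0.07551). The Slc2a1 call also ended with no filter on dim probes (adjusted p 0.08253), and it ended without ESC array 1, ESC array 2 or iPS4F array 1, at differences of 0.34 to 0.47. Slc2a3 passed in iPS6F, at 0.29 to 0.30, without MEF array 3, without background correction, with an offset of 50, or with only both groups in the fit.

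Hexokinase traps glucose in the cell as its phosphate. Hk1, the only hexokinase of the list with a probe, was dim. The log2 level of its main probe was 4.44, 4.27 and 4.22 in MEF, with detection on 1 array, and 4.19, 4.12 and 4.26 in ESC, with detection on 0 arrays. In iPS4F it was 5.41, 5.48 and 5.61 and in iPS6F 5.76, 5.93 and 5.67, detected on all of them. Every iPS array was above every ESC and MEF array. On this probe Hk1 was at least 2.05-fold higher in iPS4F than in ESC and at least 2.50-fold higher in iPS6F (adjusted p 2.222e-07 and 2.498e-08). The probe was kept only through the iPS groups, where it was high. The selection thus favoured these differences, and nothing is read from their p-values. Here and below, "at least" sets the lowest detected signal against a group in which the probe was not detected. The second kept probe was detected on all 3 MEF arrays and on 1 ESC array, and was higher than in ESC by 0.48 ± 0.13 in iPS4F and 0.63 ± 0.13 in iPS6F. Between ESC and MEF the main probe differed by -0.12 ± 0.11 and was not called.

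Phosphofructokinase commits sugar to glycolysis, and its 3 subunit genes differed in size of change. Pfkl, the liver-type subunit, was at 7.71, 8.02 and 8.14 in MEF and at 10.84, 10.93 and 11.13 in ESC. It was at 11.59, 11.73 and 11.57 in iPS4F and at 11.63, 11.29 and 11.48 in iPS6F. On this main probe its differences from MEF were 3.01 ± 0.13, 3.67 ± 0.13 and 3.51 ± 0.13, or 8.05-, 12.75- and 11.4-fold. Its second, dim kept probe was called higher than in MEF in ESC, at 0.38. That probe was not called in iPS4F, at 0.05, or in iPS6F, at 0.06. Against ESC it differed by -0.33 in iPS4F and -0.32 in iPS6F, not called.

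Pfkp, the platelet-type subunit, had the largest differences of both iPS groups from ESC among the genes detected on every array compared. Hk1, for which only a bound is given, cannot be ranked beside it. Its level was 6.03, 5.89 and 5.60 in MEF, 7.80, 7.57 and 7.51 in ESC, 9.05, 9.42 and 9.52 in iPS4F, and 9.87, 9.40 and 9.68 in iPS6F. The groups formed 3 steps without overlap, MEF, ESC and the iPS cells, while the iPS groups overlapped each other. Against ESC the differences were 1.70 ± 0.15 in iPS4F (3.25-fold, adjusted p 5.779e-07) and 2.02 ± 0.15 in iPS6F (4.05-fold, adjusted p 8.208e-08). Its second kept probe also passed in both iPS groups against ESC, at 2.29 and 2.57.

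Pfkm, the muscle-type subunit, changed least of the 3. It ran from 8.06 to 8.15 in MEF, 8.60 to 8.77 in ESC, 9.02 to 9.19 in iPS4F and 8.99 to 9.03 in iPS6F. It was 1.515-fold higher in ESC than in MEF and higher again in iPS4F (0.41 ± 0.10, adjusted p 0.003406) and iPS6F (0.31 ± 0.10, adjusted p 0.01619) than in ESC. The call in iPS6F against ESC ended without ESC array 1, at 0.26. Under median scaling the call in ESC against MEF ended, at 0.22 (adjusted p 0.371).

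Aldolase splits the 6-carbon sugar, and both of its measured genes were higher in pluripotent cells. Aldoa, the widely expressed form, was at 9.54, 9.49 and 9.48 in MEF, 11.48, 11.49 and 11.45 in ESC, 11.95, 11.96 and 12.33 in iPS4F, and 12.35, 12.07 and 12.20 in iPS6F. The ESC and MEF arrays lay close together within their groups, and every iPS array was above every ESC array. The differences from ESC were 0.61 ± 0.12 and 0.74 ± 0.12 (adjusted p 0.0006067 and 0.0001033).

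Aldoc, the form best known from brain, was near the floor in MEF. It was at 4.47, 4.28 and 4.75 there and detected on 2 of 3 arrays, against 7.64, 7.31 and 7.32 in ESC. In iPS4F it was at 9.04, 8.54 and 8.69 and in iPS6F at 8.58, 8.74 and 8.83. It was 7.56-fold higher in ESC than in MEF, and a further 2.53-fold (iPS4F) and 2.45-fold (iPS6F) higher in the iPS groups than in ESC. Over the processing settings its log2 difference of ESC from MEF ran from 1.49 to 5.10, so the size of that fold is not settled. Tubb3, Snap25 and Sox1, markers of neurons and glia, were not detected in iPS cells or ESC by any probe, and Gfap was detected among these arrays on ESC array 2 alone. Of the others listed, Map2 was detected on 3 ESC arrays, 2 iPS4F arrays and 1 iPS6F array by its brightest probe. Syp was detected on 1 ESC array, 1 iPS4F array and 2 iPS6F arrays, and Neurod1 on 1 ESC array. The part of these markers in the result was not tested. In these groups the summed level of the 7 listed markers was 128 to 144.6, against 390.9 to 441.1 in MEF.

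Triose phosphate isomerase and glyceraldehyde-3-phosphate dehydrogenase were higher than in MEF in every pluripotent group. The main probe of Tpi1 ran from 11.06 to 11.30 in MEF and from 12.52 to 12.86 on all 9 other arrays, with no call against ESC. Its other kept probes were called higher than ESC in both iPS groups, by 0.36 and 1.32 in iPS4F and by 0.44 and 1.41 in iPS6F, as was the mean of its probes, at 0.62 and 0.64 (adjusted p 6.172e-05 and 3.982e-05). Gapdh, which is often used as a reference gene, was at 10.65, 10.70 and 10.74 in MEF, 12.16, 12.19 and 12.18 in ESC, 12.22, 12.22 and 12.31 in iPS4F, and 12.31, 12.31 and 12.25 in iPS6F. It was thus 2.79-fold higher in ESC than in MEF (adjusted p 3.728e-10), while the iPS differences from ESC of 0.07 ± 0.09 and 0.11 ± 0.09 were not called. Under median scaling Gapdh and Tpi1 passed in iPS4F against ESC, at 0.65 and 0.68. Genes such as Gapdh and Tpi1 are known for processed pseudogenes, and the probe sequences were not used here, so signal from such copies was not tested.

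Phosphoglycerate kinase makes the first ATP of the payoff phase. Pgk1 was at 8.49, 8.19 and 8.16 in MEF, 10.14, 10.00 and 10.13 in ESC, 11.46, 11.19 and 11.35 in iPS4F, and 11.44, 11.33 and 11.38 in iPS6F. Again MEF, ESC and iPS cells formed 3 steps without overlap. It was 3.50-fold higher in ESC than in MEF, and against ESC 2.375-fold higher in iPS4F and 2.45-fold in iPS6F (adjusted p 6.669e-07 and 3.474e-07). Pgk1 lies on the X chromosome, as do Pdk3 and Pdha1, and the ESC were of both sexes while the other groups were male. The part of this in the results was not tested.

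The main probes of the phosphoglycerate mutases moved apart. Pgam1, the widely expressed form, was at 6.92, 6.76 and 6.70 in MEF, 8.69, 8.65 and 8.36 in ESC, 9.11, 9.22 and 9.33 in iPS4F, and 9.43, 9.49 and 9.61 in iPS6F. Pgam2, the muscle form, was at 4.63, 4.84 and 4.998 in MEF, 6.43, 6.84 and 6.55 in ESC, 5.76, 6.04 and 5.74 in iPS4F, and 5.70, 5.99 and 5.72 in iPS6F. So, by main probes, Pgam1 was highest in the iPS groups and Pgam2 in ESC. The second, dimmer kept probe of Pgam1 did not show this. It differed from ESC by 0.005 in iPS4F and -0.11 in iPS6F, not called. Against ESC, Pgam1 was higher by 0.66 ± 0.12 and 0.94 ± 0.12, and Pgam2 lower by -0.76 ± 0.14 in iPS4F and -0.80 ± 0.14 in iPS6F (adjusted p 0.0003676 and 0.0002113).

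Enolase makes phosphoenolpyruvate, and its muscle gene Eno3 followed the pattern of Pgam2. Eno3 was at 6.25, 6.33 and 5.93 in MEF, 8.04, 7.86 and 7.64 in ESC, 6.86, 6.88 and 7.28 in iPS4F, and 7.28, 7.09 and 7.01 in iPS6F. It was 3.196-fold higher in ESC than in MEF and lower in the iPS groups than in ESC, by -0.84 ± 0.15 and -0.72 ± 0.15 (adjusted p 0.0002824 and 0.0008631). The summed level of the 6 muscle markers with a probe was 251.8 to 288.4 in ESC, 153.5 to 180.4 in iPS4F, 150.8 to 169 in iPS6F and 209.8 to 226.2 in MEF. Of these, Actn3 and Des were lower in both iPS groups than in ESC. Acta1, at 5.91 in MEF and 4.80 in ESC, was higher in iPS4F, at 5.24, and lower in iPS6F, at 4.40. Ckm and Myog were not detected in ESC, and Myod1 was detected on ESC array 2, at 5.48. The part of these markers in the result was not tested. When arrays were scaled to a common median instead of quantile-normalized, the Pgam2 and Eno3 calls against ESC ended, at -0.10 to -0.45.

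Eno2, the neuronal enolase, was the gene that most set the iPS groups apart from each other. It was at 7.12, 7.41 and 7.44 in MEF, 7.33, 7.47 and 7.52 in ESC, 8.08, 8.23 and 8.07 in iPS4F, and 9.002, 9.04 and 9.27 in iPS6F. MEF and ESC overlapped, iPS4F lay above both, and iPS6F above iPS4F. Against ESC it was 1.61-fold higher in iPS4F and 3.175-fold higher in iPS6F (adjusted p 0.0002418 and 3.696e-08).

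Pyruvate kinase ends glycolysis. Pkm, whose transcripts give the M1 and M2 forms by splicing, was at 9.66, 10.01 and 9.66 in MEF, 11.59, 11.45 and 11.54 in ESC, 12.61, 12.66 and 12.64 in iPS4F, and 12.09, 11.93 and 11.98 in iPS6F. No group overlapped another, in the order MEF, ESC, iPS6F, iPS4F. It was 3.36-fold higher in ESC than in MEF, and against ESC 2.15-fold higher in iPS4F and 1.39-fold higher in iPS6F (adjusted p 1.758e-06 and 0.002884). The call in iPS6F against ESC ended when the kept probes were averaged. Which splice form a probe reads cannot be told here.

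Lactate dehydrogenase turns pyruvate to lactate and back. Ldha, the form known to favour lactate, was at 11.10, 10.44 and 10.32 in MEF, 12.12, 12.02 and 12.14 in ESC, 12.63, 12.58 and 12.43 in iPS4F, and 12.68, 12.45 and 12.45 in iPS6F. MEF array 1 stood above the other MEF arrays yet below every other array. Ldha was 2.78-fold higher in ESC than in MEF (adjusted p 4.07e-07). Its calls against ESC were weak, 0.45 ± 0.16 in iPS4F and 0.43 ± 0.16 in iPS6F (adjusted p 0.03322 and 0.03885). The first ended without any 1 of the 3 ESC arrays, iPS4F array 1 or iPS4F array 2, at 0.41 to 0.48. The second ended without any 1 of the 6 arrays compared, at 0.35 to 0.47. Both ended with the authors' values and with no filter on dim probes (adjusted p 0.0935 to 0.1282).

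Ldhb, the form of heart and other oxidative tissues, was not detected in MEF, where it ran from 4.14 to 4.25, and was detected on 1 ESC array. It ran from 4.77 to 5.70 in iPS4F and from 4.96 to 5.34 in iPS6F. It was at least 1.78-fold higher in iPS4F than in MEF and at least 1.70-fold higher in iPS6F. Against ESC it was higher by 0.85 ± 0.18 and 0.78 ± 0.18 (adjusted p 0.001264 and 0.002134). Its probe, too, was kept only through the iPS groups, where it was high, so nothing is read from these p-values.

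The pyruvate dehydrogenase complex and its kinases did not all change one way. Pdk1, a kinase that switches the complex off, was at 5.29, 5.05 and 5.28 in MEF, 8.82, 8.49 and 8.83 in ESC, 8.89, 8.82 and 8.80 in iPS4F, and 8.86, 8.82 and 8.87 in iPS6F. The pluripotent groups overlapped, all far above MEF, at 11.4-fold (adjusted p 8.194e-14), 12.4-fold and 12.5-fold. Pdk3, another such kinase, was higher than in MEF by 0.50 ± 0.16 in ESC (adjusted p 0.0101), 0.77 ± 0.16 in iPS4F and 0.62 ± 0.16 in iPS6F. The ESC call ended without MEF array 3, at 0.37. Under median scaling the calls in ESC and iPS6F ended, at 0.04 and 0.46 (adjusted p 0.8998 and 0.08446).

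Among the complex's own subunits, Pdhb was higher and Pdha1 and Dlat were not. Pdhb, the beta subunit of the first enzyme, was at 6.60, 6.48 and 6.24 in MEF, 7.86, 7.51 and 7.47 in ESC, 8.58, 8.68 and 9.05 in iPS4F, and 9.15, 9.07 and 9.06 in iPS6F. The 3 steps did not overlap, and the differences from ESC were 1.15 ± 0.14 and 1.48 ± 0.14 (adjusted p 1.127e-05 and 7.896e-07). Pdha1, the alpha subunit of the same enzyme, was at 10.35, 9.99 and 10.05 in MEF, 9.80, 9.50 and 9.87 in ESC, 10.03, 10.00 and 10.02 in iPS4F, and 10.22, 10.08 and 10.04 in iPS6F. Its lowest 3 arrays were the ESC arrays.

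Pdha1 was lower in ESC than in MEF by -0.41 ± 0.12 (adjusted p 0.007788) and higher in iPS6F than in ESC by 0.39 ± 0.12 (adjusted p 0.01726). The first call ended without ESC array 2, at -0.29, and the second without ESC array 2 or iPS6F array 1, at 0.28 to 0.34. Median scaling ended both, at -0.60 (adjusted p 0.06131) and 0.64 (adjusted p 0.08747), and the authors' values the second (adjusted p 0.05528). In iPS4F against ESC the difference of 0.30 did not pass (adjusted p 0.06755), but did without ESC array 3 or MEF array 1, at 0.30 to 0.37, without background correction, at 0.28, with an offset of 50, at 0.28, and under median scaling, at 0.96. Dlat, the acetyl transferase of the complex, was dim throughout, at 4.95 to 5.26 in MEF and 4.32 to 4.94 elsewhere. It was lower than in MEF by -0.51 ± 0.15, -0.39 ± 0.15 and -0.56 ± 0.15 (adjusted p 0.005344, 0.02367 and 0.002535). The call in iPS4F ended without MEF array 2, MEF array 3 or iPS4F array 1, at -0.32 to -0.39. It also ended under median scaling, with the authors' values and with no filter on dim probes (adjusted p 0.113, 0.07186 and 0.07062).

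Phosphoglucomutase links glycolysis to glycogen. Pgm1 was at 9.81, 9.80 and 9.60 in MEF, 10.62, 10.54 and 10.82 in ESC, 11.60, 11.64 and 11.60 in iPS4F, and 11.46, 11.18 and 11.24 in iPS6F. The groups did not overlap, and iPS4F was the highest. Against ESC it was 1.94-fold higher in iPS4F and 1.55-fold in iPS6F (adjusted p 7.786e-06 and 0.0003038), while the difference between the iPS groups, -0.32 ± 0.11, did not pass (adjusted p 0.2732).

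Of the pentose phosphate genes, only transketolase and transaldolase, which shuffle carbons between sugars of the branch without oxidation, could be measured. Tkt was at 8.75, 9.17 and 9.24 in MEF, 10.51, 10.76 and 10.76 in ESC, 10.25, 10.50 and 10.69 in iPS4F, and 10.55, 10.45 and 10.85 in iPS6F. Taldo1 was at 9.68, 9.77 and 9.43 in MEF, 11.10, 11.16 and 11.18 in ESC, 10.71, 10.83 and 10.86 in iPS4F, and 11.06, 10.74 and 10.93 in iPS6F. Both were higher than in MEF in every pluripotent group, by 2.26- to 3.09-fold. Against ESC neither was higher. Taldo1 was lower in iPS4F by -0.34 ± 0.12 (adjusted p 0.02826), a call that ended without ESC array 2, ESC array 3, iPS4F array 1 or iPS4F array 2, at -0.30 to -0.36, and the difference became 0.27 (adjusted p 0.2469) under median scaling. It ended with the authors' values too (adjusted p 0.07909).

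Against ESC, more of the pathway was higher than lower in the iPS cells. In iPS4F 16 of the 26 genes were higher, 3 lower and 7 not called, where over all genes 41.8% were called, 17.4% higher and 24.4% lower. In iPS6F 15 were higher, 2 lower and 9 not called, where 45.1% of all genes were called, 17.5% higher and 27.6% lower. The same 14 genes were higher in both groups, and Pgam2 and Eno3 were lower in both, but the comparisons share the ESC arrays. Among the 14, Hk1 and Ldhb had main probes that were kept only through the iPS groups, where they were high. These genes therefore add no support to the counts in this paragraph. The median log2 difference of the 26 was 0.49 and 0.41, beside -0.05 and -0.07 for all genes. In each, 6 genes were at least 2-fold higher, where 2.96% and 3.22% of all genes were. These were Pfkp, Hk1, Aldoc, Pgk1, Pdhb and, in iPS4F, Pkm or, in iPS6F, Eno2. Tpi1, Gapdh, Pdk1, Pdk3, Dlat and Tkt were called in neither, though all but Tkt passed in iPS4F under median scaling, and Tpi1 in both and Pdk1 in iPS6F with the probes averaged.

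Median scaling moved all genes against ESC by 0.39 in iPS4F and 0.09 in iPS6F, and then 22 and 14 of the 26 genes were higher and 0 lower. Of all 10096 genes, 4254 and 2237 were called in that setting, and 94.2% and 75.6% of those called were higher. Relative to the median of all genes, the 26 were higher by 0.54 and 0.48 with quantile normalization and by 0.71 and 0.59 with median scaling.

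**Figure D3:**
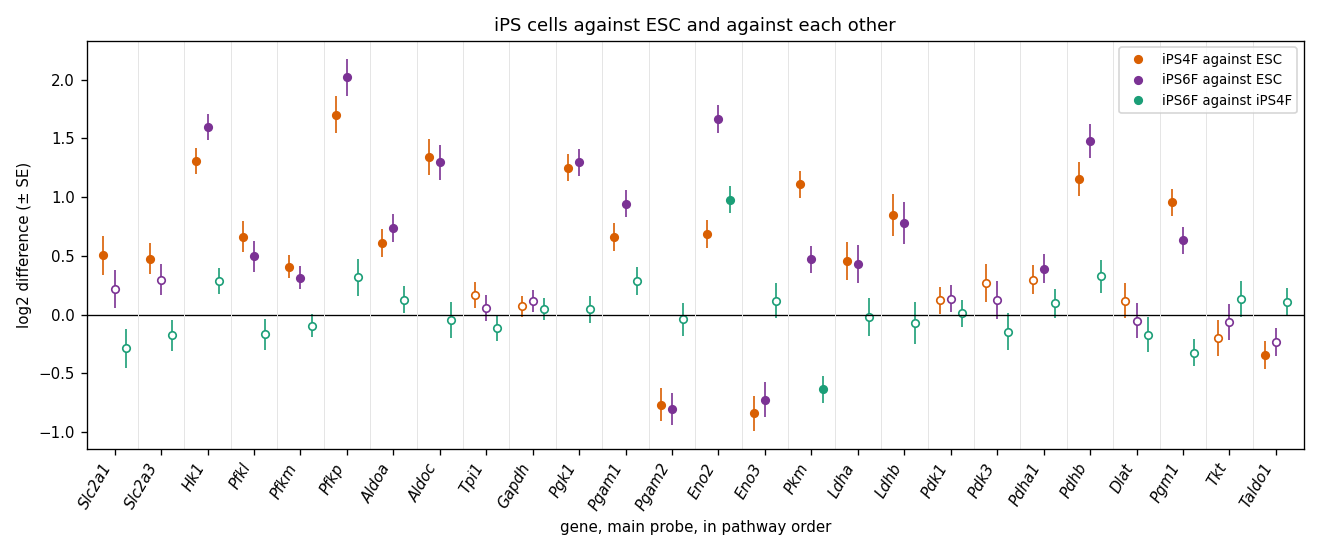
Log2 difference ± SE (vertical axis) of each gene's main probe for iPS4F against ESC, iPS6F against ESC and iPS6F against iPS4F; filled points passed an adjusted p of 0.05. Pfkp, at 1.70 and 2.02, is highest against ESC, and only Eno2 (0.98) and Pkm (-0.64) are filled between the iPS groups.

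The contrast of iPS6F with iPS4F sets cells made with Brg1 and Baf155 added against cells made with the 4 factors alone. Since the labels give no clones or separate cultures, an effect of these factors cannot be told apart from differences between clones or cultures. Of the 26 genes 2 were called, Eno2 higher and Pkm lower, where 0.792% of all genes were called, 0.248% higher and 0.545% lower. Eno2 was higher in iPS6F by 0.98 ± 0.12, or 1.97-fold (adjusted p 0.0004547), with every iPS6F array above every iPS4F array. Pkm was lower by -0.64 ± 0.11, or 1.555-fold (adjusted p 0.01322), again without overlap. Its second kept probe was lower by -0.89 ± 0.15. That probe was detected on 3 iPS4F arrays, 1 iPS6F array, 1 ESC array and 0 MEF arrays. It was kept only through iPS4F, where it was high, and so adds no support. The other 24 genes differed by -0.32 to 0.33, with SEs of up to 0.18 and adjusted p of 0.2732 or more, and 4 of them had an unadjusted p under 0.05. At least 2-fold higher in iPS6F were 0 of the 26, where 0.0396% of all genes were. A p that misses the threshold does not show equal levels.

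Both calls between the iPS groups ended under median scaling, Eno2 at 0.57 (adjusted p 0.1738) and Pkm at -0.94 (adjusted p 0.09527), where all genes shifted by -0.29. Pkm also ended without iPS4F array 2, iPS6F array 2 or iPS6F array 3, at -0.60 to -0.63, and with the authors' values, at -0.64 (adjusted p 0.1314).

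For the 11 genes with more than 1 kept probe, the probes often differed in size of change. In ESC against MEF, all kept probes of 8 of the 11 genes were called the same way, in iPS4F against MEF 8, in iPS6F against MEF 9, in iPS4F against ESC 5 and in iPS6F against ESC 4. Pfkl is the widest case: its main probe gave 3.01 in ESC against MEF and its second, dim probe 0.38. For Pdk1 the values were 3.51 and 1.59, and for Pkm 1.75 and 0.36. These second probes were near the floor as well. That of Pdk1 was detected on 1 MEF array, and that of Pkm on 0 MEF arrays and 1 ESC array. Such gaps in size are therefore not read as disagreement between probes. Pdhb was the 1 gene with calls both ways: in iPS4F against ESC its main probe gave 1.15 and another, dimmer probe -0.53. When kept probes were averaged, the calls of Pfkl against ESC ended in both iPS groups.

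**Figure D4:**
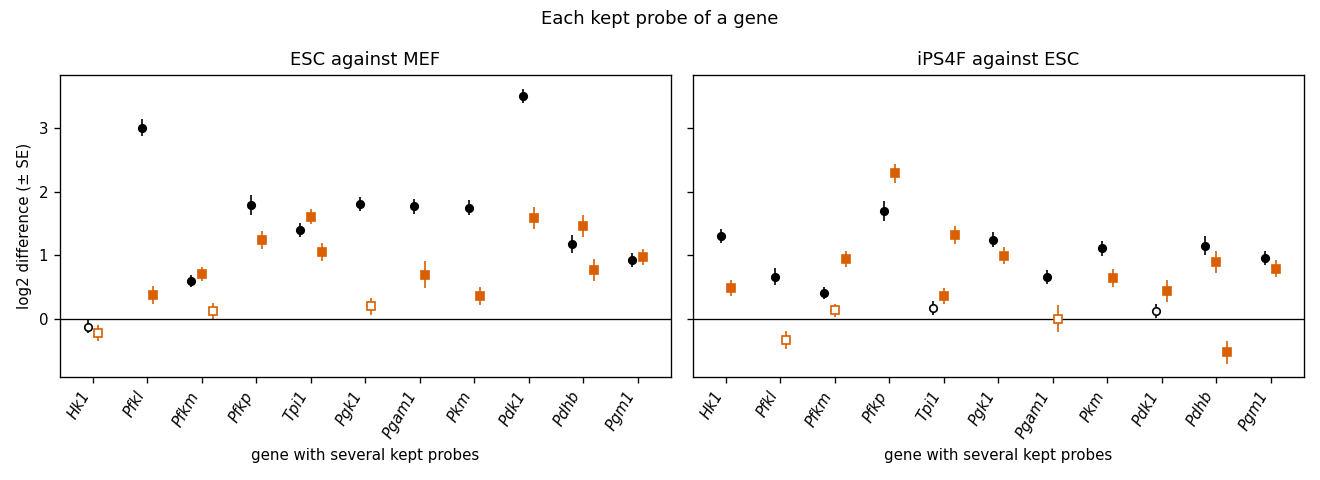
Log2 difference ± SE (vertical axis) of every kept probe of the 11 genes with several, for ESC against MEF (left) and iPS4F against ESC (right); black circles are the main probe, orange squares the others, and filled symbols passed an adjusted p of 0.05. The main and second probes of Pfkl lie at 3.01 and 0.38 on the left, and the lowest Pdhb probe at -0.53 on the right.

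Isozymes of 1 step can change unequally, and the log2 ratio of their main probes within an array measures this. Of 11 pairs listed, 7 had both genes measured, and 34 comparisons could be made. A ratio of probes is not a ratio of transcripts, so only its change between groups is given. With 3 arrays against 3, the two-sided exact permutation test cannot go below 0.1, which 20 of the 34 comparisons reached, with 0.17 after Benjamini-Hochberg adjustment over the 34. None can therefore be called.

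The ratio of Slc2a3 to Slc2a1 was higher by 2.50 in ESC, 2.47 in iPS4F and 2.58 in iPS6F than in MEF, without overlap (exact p 0.1 each). That of Pfkm to Pfkl was lower than in MEF, by -2.41, -2.67 and -2.59, and that of Pdk3 to Pdk1 by -3.01, -2.86 and -3.02 (exact p 0.1 each). So the main probes of GLUT3, liver-type PFK and Pdk1 gained on those of their partners in all pluripotent groups. Pfkp to Pfkl was lower in ESC than in MEF, by -1.22, and higher in the iPS groups than in ESC, by 1.04 and 1.52, without overlap (exact p 0.1 each). Pgam2 to Pgam1 was lower in the iPS groups than in ESC, by -1.42 and -1.75, and Aldoc to Aldoa higher, by 0.73 and 0.56 (exact p 0.1 each). Between the iPS groups the ratio of Pfkp to Pfkl differed by 0.48 without overlap (exact p 0.1).

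**Figure D5:**
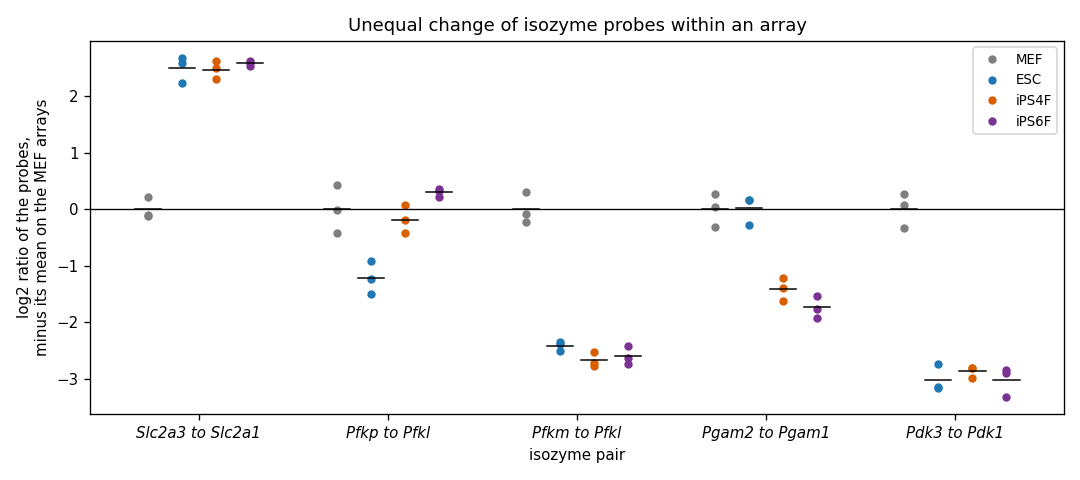
Within-array log2 ratio of the main probes of 5 isozyme pairs, minus its mean on the MEF arrays (vertical axis), for each array, with a line at the group mean. The pluripotent groups sit about 2.50 above MEF for Slc2a3 to Slc2a1 and about 3.01 below for Pdk3 to Pdk1, while for Pgam2 to Pgam1 the ESC arrays overlap MEF and the iPS arrays do not.

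The wider pathway was described by a further list. Of 54 other genes of glucose transport, gluconeogenesis, lactate and pyruvate handling and the pentose branch, 25 were measured. Against MEF, 11 were higher and 10 lower in ESC, 10 and 11 in iPS4F, and 9 and 11 in iPS6F, which is near the shares of all genes given above (39.8% and 35.9% in ESC). Gpd2, the mitochondrial glycerol phosphate dehydrogenase, was higher than in MEF by 2.35 ± 0.13, 2.53 ± 0.13 and 2.32 ± 0.13 in ESC, iPS4F and iPS6F on its main probe, and by 0.08, 0.28 and 0.38, not called, on its second. Ldhc is the testis form of lactate dehydrogenase. Its main probe was not detected in MEF and was at least 3.605-, 5.92- and 5.98-fold higher, while another of its probes was detected on 1 MEF array, and all 3 kept probes were called higher. Pdp2, a phosphatase that switches pyruvate dehydrogenase back on, was 3.67-fold higher in ESC. Its mean was also higher in iPS4F, at 8.60, and iPS6F, at 8.45, than in MEF, at 7.28. Pgm5 is a relative of phosphoglucomutase found at cell adhesions. Its main probe was not detected in the pluripotent groups and was at least 9.14-fold lower in ESC, 9.85-fold in iPS4F and 9.59-fold in iPS6F, while another kept probe was detected on 1 ESC array, and all 3 kept probes were called lower. H6pd, which makes reducing power inside the endoplasmic reticulum, was 4.98-fold and 7.01-fold lower in iPS4F and iPS6F than in MEF. Its mean was lower in ESC as well, at 6.60 against 8.14 in MEF.

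Against ESC, 2 of these 25 genes were higher and 7 lower in iPS4F, and 1 higher and 6 lower in iPS6F. Of all genes 17.4% were higher and 24.4% lower in iPS4F, and 17.5% and 27.6% in iPS6F, so the counts of lower genes are near those shares. Pgls, the lactonase of the oxidative pentose branch, was lower by -1.58 ± 0.16 in iPS4F and -1.49 ± 0.16 in iPS6F (adjusted p 1.402e-06 and 1.775e-06). H6pd was lower by -0.78 ± 0.17 and -1.27 ± 0.17, and Ugp2, which makes UDP-glucose for glycogen, by -0.67 ± 0.11 and -0.74 ± 0.11. Ldhc was higher by 0.72 ± 0.12 and 0.73 ± 0.12. Between the iPS groups limma called 0 of the 25, with differences of -0.49 to 0.38 and 1 unadjusted p under 0.05.

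Of 15 genes known to control glycolysis, 14 were measured. Against MEF 4 were higher and 6 lower in ESC, 4 and 4 in iPS4F, and 4 and 3 in iPS6F, where of all genes 39.8% and 35.9%, 39.5% and 38.9%, and 38.9% and 39.2% were. With so few genes, nothing is read from these counts. Hif1a, the regulated subunit of the hypoxia factor that binds the letters shown above, gave no settled direction: its main probe was lower than in MEF by -1.10 ± 0.20, -0.74 ± 0.20 and -0.80 ± 0.20, but its second kept probe, which was not detected in MEF and so gives fitted values only, differed by 0.21, not called, in ESC and was higher by 0.61 (adjusted p 0.001091) in iPS4F and 0.38 (adjusted p 0.02265) in iPS6F. Egln3, a hydroxylase that marks it for decay and is itself a known target of it, was higher by 2.76 ± 0.13, 3.07 ± 0.13 and 3.05 ± 0.13. HIF protein was not measured.

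Esrrb and Lin28a, pluripotency genes known to act on metabolism, were not detected in MEF. Lin28a was at least 3.385-, 8.73- and 9.91-fold higher in ESC, iPS4F and iPS6F on its main probe. Its 4 kept probes did not agree on the iPS groups against ESC: the main probe was higher by 1.37 ± 0.13 and 1.55 ± 0.13, another, not detected in ESC, was at least 1.54- and 1.90-fold higher, another was not called, and another was lower by -0.47 (adjusted p 0.02254) and -0.48 (adjusted p 0.01887). Txnip, which lowers glucose uptake by removing transporters from the surface, was lower in ESC than in MEF by -0.66 ± 0.12 and higher in the iPS groups than in ESC by 0.74 ± 0.12 and 0.68 ± 0.12. The 5 kept probes of Arnt, the partner of Hif1a, did not agree: in ESC against MEF the main probe was lower by -0.56 ± 0.13, while 2 others were called higher, by 0.80 and 0.50. Between the iPS groups limma called 0 of the 14 regulators, with differences of -0.11 to 0.28 and 0 unadjusted p under 0.05.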

How the data were processed

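Biotin-labelled cRNA was hybridised to Illumina mouse bead arrays, 3 in each of 4 groups, grouped by title. Raw probe intensity, not normalized, is held by a deposited table, per the file headers, from 64.1 to 21025, with a detection p-value beside it. A deposited table of log2 values holds the authors' processed values of the same arrays, with a median of 1.16 in each column and a lowest value of -0.4952, ranked as the intensities are. Its background step and centring are unknown here, so it served as an alternative. The submitters' processing notes name BeadStudio 3.2, RMA and lumi without a role. The number of arrays limits the precision.

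With limma 3.58.1 in R 4.3.3, the background was corrected by the normal-exponential model from the detection p-values, an offset of 16 was added, arrays were quantile-normalized and log2 was taken. The offset understates folds of dim genes. The platform annotation named 1 gene for 34885 of 45281 probes, several for 18, among them 1 of Fbp1 that was left out, and none for 10378. Symbols can be old. Detection left 17563 probes, 15294 with a symbol, for 10096 genes, each counted by its brightest kept probe, its main probe. One model with a mean for each group was fitted with lmFit and eBayes to all 12 arrays, and p-values were Benjamini-Hochberg adjusted over all kept probes. The threshold was 0.05.

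Every listed gene is accounted for. Of the 54 other pathway genes, the 4 of largest change among those called per comparison were eligible to be named. The named regulators were chosen after their values were seen. All genes and lists were chosen with earlier results of these data known. Same-numbered arrays showed little shared deviation: 3 of 18 pairs of groups and numbers correlated above 0.1, with a range of -0.18 to 0.14. The labels name no pairing and the main model used none, but these values cannot exclude a shared preparation. Alternatives were the background correction, offset, scaling, filter, choice of probe, the arrays in the fit, the authors' values and each array left out.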

Additional observations from a re-analysis of the deposited data

Results flagged for a closer look

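Eno2 and Pkm are singled out because the change from MEF differed between the iPS groups, by the limma test of that difference. For Eno2 the difference from MEF was 0.80 ± 0.12 (SE) in iPS4F and 1.78 ± 0.12 in iPS6F, apart by 0.98 (adjusted p 0.0004547), with all 3 iPS6F arrays above all 3 iPS4F arrays. For Pkm it was 2.86 ± 0.11 in iPS4F and 2.22 ± 0.11 in iPS6F, apart by -0.64 (adjusted p 0.01322), with all 3 iPS6F arrays below all 3 iPS4F arrays. Markers of neurons and glia had summed levels of 128 to 137.2 in iPS4F and 130.3 to 143.2 in iPS6F. Tubb3, Gfap, Snap25, Sox1 and Neurod1 were detected on no array of either group. Map2 was detected on 2 iPS4F arrays and 1 iPS6F array, and Syp on 1 iPS4F array and 2 iPS6F arrays. The part of these markers in the Eno2 result was not tested.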

How the results depend on the processing

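Counts of called genes among the 26 moved by less than 1.5 times in 5 of the 6 comparisons under every alternative: 20 to 23 for ESC against MEF, 21 to 25 for each iPS group against MEF, 15 to 22 for iPS4F against ESC and 14 to 18 for iPS6F against ESC. With 1 array left out they ran from 22 to 23, 24 to 25, 25 to 25, 16 to 19 and 15 to 16. For iPS6F against iPS4F the main count of 2 became 0 under median scaling and 1 with the authors' values, and ran from 1 to 2 with 1 array left out. The cause was not tested. With the authors' values 148 of the 156 differences kept direction and call, and under median scaling 137 did. Under median scaling the Taldo1 difference of iPS4F from ESC turned to 0.2673. Of the isozyme ratios, Pfkp to Pfkl in iPS6F against MEF turned from 0.30 to -0.352 without background correction. Pgam2 to Pgam1 in ESC against MEF turned from 0.02 to -0.5141 without it and to -0.4196 with an offset of 50. Both ratios had overlapping arrays in the main setting. Median scaling moved the share of called genes that were higher, over all genes, from 52.6% to 37.8% for ESC against MEF, from 41.6% to 94.2% for iPS4F against ESC, from 38.9% to 75.6% for iPS6F against ESC and from 31.2% to 10.3% between the iPS groups. With the replicate number as a block, although the labels name no pairing, the counts were 23, 25, 25, 19, 17 and 2, and all 156 differences kept direction and call. Over all genes, the count called between the iPS groups was 80, against 29 under median scaling, 33 with the authors' values and 27 with only both groups in the fit; iPS6F against ESC gave 2237 under median scaling, against 4550. The main probes of 22 of the 26 genes were detected on all 12 arrays, but Hk1, Aldoc, Ldhb and Dlat lie near the background in at least 1 group. Pgam2, though detected on all arrays, was dim in MEF, at 4.63 to 4.998. Its difference of ESC from MEF ran from 0.84 to 3.09 over the settings.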
